A study of Homo sapiens with 32 samples.

Results

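SAGA is a large coactivator complex that modifies histones at gene promoters, and its subunits were examined here through the sgRNAs that target them in a pooled CRISPR-knockout screen. The 16 member genes were chosen by name as subunits of human SAGA, each symbol was matched to the Ensembl identifier of its target in the count table, and all 64 of their sgRNAs were found, 4 for each gene, out of 74987 sgRNAs and 18638 genes in the library. By module, 20 sgRNAs target the 5 genes of the acetyltransferase module, 24 target the 6 core genes, 4 target TRRAP and 16 target the 4 genes of the deubiquitinase module. All 64 sgRNAs had enough reads to be tested. The table names an sgRNA by its target gene and a number from 1 to 4, which is used below, and sgRNA sequences and cut sites were not used here.

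The screen used RKO cells, an established human colon carcinoma line labelled as genotype WT, carrying transgenes for Cas9 and for Kinprola PKA, a recorder based on split HaloTag that becomes labeled with the fluorescent substrate CPY-CA while protein kinase A is active. On day 6 the cells of 2 independent screens, numbered replicates 2 and 3 in the labels and called screens 2 and 3 here, were sorted by the ratio of CPY-CA to EGFP into low, medium (called basal in the labels) and high populations, and each screen also had a library labelled as a day 0 control (T0), whose handling the sources used here do not describe further. All populations of a screen therefore carried the same transgenes and the same sgRNA library, and no untreated or drug-treated arm belongs to the comparison. The 8 libraries, each the sum of 4 sequencing lanes, held 23369720 to 31777138 reads, with a median of 260 to 356 reads per sgRNA.

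SAGA is built from modules. One module acetylates histone H3 through KAT2A or its paralog KAT2B, another removes ubiquitin from histone H2B through USP22, a core of histone-fold and TAF-like subunits holds the modules together and contacts the TATA-binding protein, and TRRAP, a pseudokinase, binds activators. SAGA shares subunits with other complexes. Among them are TADA3 and SGF29 with the acetyltransferase complex ATAC, TRRAP with TIP60, ENY2 with the mRNA export complex TREX-2, and several TAFs with TFIID.

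The comparison of the high with the low population asks whether losing a SAGA subunit changed the recorder signal. Knockouts of 14 of the 16 members were found more often in the high population, and none was found more often in the low one (limma on the fold changes of both screens, n = 2 screens, adjusted p under 0.05). Among all genes of the library, 5.25% were called higher in the high population and 2.73% lower. The median log2 fold change of the 16 members was 1.31, beside -0.00997 over all genes, whose central 95% ran from -0.43 to 0.90. The members not called were KAT2B, the alternative catalytic subunit, and SUPT3H, a core subunit that contacts the TATA-binding protein. Throughout, a gene's log2 fold change is the mean over its 4 sgRNAs and both screens of log2(scaled reads + 1), where reads were scaled to the mean library total of 27695208, and reads given for a gene are scaled reads summed over its 4 sgRNAs.

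Within the acetyltransferase module 4 of 5 members were higher in the high population, with a module median of 1.80 on the log2 scale and a range of -0.09 to 2.62. SGF29, a tandem Tudor protein that reads methylated lysine 4 of histone H3 (GRCh38 chromosome 16, 28553915 to 28591790), had 680.3 and 685 reads in the low libraries of screens 2 and 3, 1223 and 1329 in the medium ones and 2151 and 2242 in the high ones. On the log2 scale SGF29 rose by 2.62 (SE 0.176, adjusted p = 1.47e-06 by limma), the largest of the 16. TADA2B, the adaptor that distinguishes the acetyltransferase module of SAGA from that of ATAC (chromosome 4, 7041899 to 7057952), rose from 566 and 449 reads in low through 1225 and 1156 in medium to 2548 and 2373 in high. The log2 fold change of TADA2B was 2.29 (SE 0.111, adjusted p = 1.85e-07), with 2.20 in screen 2 and 2.39 in screen 3. TADA3, the adaptor shared with ATAC (chromosome 3, 9779967 to 9793011), had 805 and 652 reads in low, 1411 and 1163 in medium and 2597 and 2433 in high. TADA3 rose by 1.80 on the log2 scale (SE 0.116, adjusted p = 1.06e-06). For each of these 3 adaptor genes the low, medium and high libraries did not overlap and stood in that order in both screens. Here and for the genes below, the share of all genes with such an order was not counted.

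The catalytic paralogs had different values. KAT2A (GCN5; chromosome 17, 42113111 to 42121367) had 669 and 689 reads in low, 1209 and 1104 in medium and 1467 and 1503 in high, which gave 1.19 on the log2 scale (SE 0.108, adjusted p = 1.46e-05 by limma). These populations did not overlap. KAT2B (PCAF; chromosome 3, 20040446 to 20154404) had 3992 and 3759 reads in low, 3892 and 3875 in medium and 3928 and 3746 in high, so that its populations overlapped. The log2 fold change of KAT2B was -0.09, with a 95% interval of -0.33 to 0.14, and the interval for KAT2A ran from 0.95 to 1.43. The difference between the paralogs was itself not tested. KAT2B sgRNAs were also the deepest of the members, with a mean of 947 scaled reads per sgRNA and library against 293 for KAT2A.

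In the core 5 of 6 members were higher in the high population, and the module median was 1.60 (range 0.00 to 2.52). TADA1, a histone-fold adaptor found in SAGA and not in ATAC (chromosome 1, 166856510 to 166876264), had 553 and 321 reads in low, 1292 and 1244 in medium and 2720 and 2927 in high in screens 2 and 3. The TADA1 value was 2.52 on the log2 scale (SE 0.195, adjusted p = 4.25e-06 by limma), with 1.97 in screen 2 and 3.07 in screen 3. TAF5L, the SAGA counterpart of the TFIID subunit TAF5 (chromosome 1, 229593134 to 229626122), had 559.6 and 362 reads in low, 979 and 1064 in medium and 1987 and 1969.6 in high, which gave 2.05 on the log2 scale (SE 0.174, adjusted p = 8.66e-06). TAF6L, the counterpart of TAF6 (chromosome 11, 62771357 to 62787342), had 773 and 669 reads in low, 1209 and 1294 in medium and 2438 and 2260 in high. This was a rise of 1.85 on the log2 scale (SE 0.109, adjusted p = 5.33e-07). SUPT20H, a scaffold subunit (chromosome 13, 37009312 to 37059713), had 1129.8 and 1207 reads in low, 1901 and 1694 in medium and 3296 and 3143 in high, which gave 1.36 on the log2 scale (SE 0.109, adjusted p = 5.62e-06). For TADA1, TAF5L, TAF6L and SUPT20H every high library lay above every medium library and every medium library above every low one.

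SUPT7L, the partner of TAF10 in a histone-fold pair (chromosome 2, 27650809 to 27663840), had a smaller value than the other called core genes. It had 1127 and 1192 reads in low, 1459 and 1352 in medium and 1903 and 1792 in high, which gave 0.65 on the log2 scale (SE 0.108, adjusted p = 0.00193 by limma). SUPT3H (chromosome 6, 44809317 to 45377953) had 1180.0 and 1053 reads in low, 1022 and 1123 in medium and 1089 and 1152 in high, so that its populations overlapped. Its log2 fold change was 0.00, with a 95% interval of -0.24 to 0.25 and the opposite sign in the 2 screens (-0.10 and 0.11).

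TRRAP, the activator-binding pseudokinase (chromosome 7, 98877933 to 99050831), had the fewest reads of the members, with a mean of 148 scaled reads per sgRNA and library. It had 347 and 189.6 reads in low, 477 and 356 in medium and 661 and 749 in high, which did not overlap. The log2 fold change was 1.91 (SE 0.175, adjusted p = 1.58e-05 by limma), with 1.45 in screen 2 and 2.37 in screen 3.

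All 4 members of the deubiquitinase module were higher in the high population, but with smaller values than most of the other members. The module median was 1.03 (range 0.53 to 1.26), and it lay below the medians of the acetyltransferase module and of the core in both screens (0.84, 1.65 and 1.51 in screen 2; 1.17, 1.95 and 1.60 in screen 3). The ranges of the modules overlapped, and no test was made between them. ATXN7L3, which activates USP22 (chromosome 17, 44191805 to 44200113), had 550.0 and 534 reads in low, 835 and 736 in medium and 1385 and 1222 in high, which gave 1.26 on the log2 scale (SE 0.11, adjusted p = 1.05e-05 by limma). USP22, the catalytic subunit (chromosome 17, 20999596 to 21043760), had 1057 and 1005 reads in low, 1493 and 1631 in medium and 2099 and 2387 in high. Its log2 fold change was 1.16 (SE 0.114, adjusted p = 2.99e-05). ENY2, a small subunit shared with TREX-2, had 718 and 692 reads in low, 932 and 897 in medium and 1390.2 and 1538 in high, which gave 0.90 on the log2 scale (SE 0.131, adjusted p = 0.000697). ATXN7, which anchors the module to the complex (chromosome 3, 63863155 to 64003462), had 1557 and 1525 reads in low, 1789.8 and 1693 in medium and 1968 and 2158 in high. Its log2 fold change of 0.53 (SE 0.11, adjusted p = 0.00908) was the smallest among the called members. The ATXN7 populations did not overlap, and the share of all genes with such an order was not counted.

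The screens differed most for 4 members whose fold changes were larger in screen 3: TADA1 and TRRAP (above), SGF29 at 2.15 in screen 2 and 3.09 in screen 3, and TAF5L at 1.59 and 2.51. Ranked by log2 fold change among all 18638 genes, SGF29 stood at 34, TADA1 at 39, TADA2B at 59 and TAF5L at 78 from the highest. The 95% intervals of SGF29 (2.23 to 3.00), TADA1 (2.09 to 2.95), TADA2B (2.05 to 2.54) and TAF5L (1.67 to 2.43) overlapped, so their order is not settled by 2 screens. Standard errors, intervals and p values of limma draw on the spread of all genes, with a prior of 10.2 degrees of freedom. For SGF29, TADA1 and TAF5L, and for TRRAP (1.52 to 2.29), both screen values lay outside the interval. Such intervals therefore do not describe the spread between the 2 screens. TRRAP followed at rank 103, TAF6L at 114 and TADA3 at 120. SUPT20H, ATXN7L3, KAT2A and USP22 lay between ranks 233 and 315, ENY2 at 468, SUPT7L at 648 and ATXN7 at 786, while SUPT3H (8690) and KAT2B (13224) stood in the body of the distribution. Centring on the 278 sgRNAs without a target moved the median of all genes from -0.00997 to 0.072 and the share of higher genes among those called from 65.8% to 78.3%, and the member count stayed at 14 higher and 0 lower. ATXN7, ENY2 and SUPT7L are the calls that depended on single libraries: without the low library of screen 2 or that of screen 3 their adjusted p values were 0.0695 to 0.211, which left 11 members called. In those runs their fold changes moved little, given here without the low library of screen 2 and then of screen 3. ATXN7 was at 0.55 and 0.51, ENY2 at 0.96 and 0.84 and SUPT7L at 0.64 and 0.66, beside 0.53, 0.90 and 0.65 with both. In these fits on libraries the lone low library was assumed to vary like the others. Without the high library of screen 3, ATXN7 and ENY2 were lost, and there the lone high library was likewise assumed to vary like the others. Over all 13 alternatives the fold change ran from 0.59 to 1.21 for ENY2. The range was 0.44 to 0.62 for ATXN7 and 0.60 to 0.73 for SUPT7L.

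Single sgRNAs were tested separately with edgeR's quasi-likelihood test. Of the 64 member sgRNAs, 48 were higher in the high population and 0 were lower, beside 2.95% and 1.55% of all 74312 sgRNAs tested. The 48 were 16 of 20 in the acetyltransferase module, 18 of 24 in the core, 3 of 4 for TRRAP and 11 of 16 in the deubiquitinase module. The sign of the fold change was the same in both screens for 58 of 64 member sgRNAs (90.6%), and for 56.7% of all sgRNAs against genes. All 4 sgRNAs were called for 10 members, namely KAT2A, TADA2B, TADA3, SGF29, TADA1, SUPT20H, TAF5L, TAF6L, USP22 and ATXN7L3. The share of all genes with 4 called sgRNAs was not counted.

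The sgRNAs of 1 gene share their target, and they differed in size more for some genes than for others. TADA1 sgRNA 1 had the smallest adjusted p of the 64 (2.99e-69 by edgeR): 146 and 72.3 scaled reads in the low libraries of screens 2 and 3, 427 and 383 in medium and 1014 and 1043 in high, a log2 fold change of 3.26. TADA1 sgRNAs 2, 3 and 4 gave 1.97, 1.86 and 2.91. Of these, sgRNA 3 was shallow and unequal between the screens, with 32 and 24.1 reads in low and 62.8 and 156 in high. The 4 TADA2B sgRNAs gave 2.13, 2.06, 2.04 and 2.96. TADA2B sgRNA 4 had 91.8 and 83.3 reads in low, 303 and 267 in medium and 744 and 626 in high.

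The value of SGF29 rested in part on a sparse sgRNA. SGF29 sgRNA 2 had 16 and 1.1 scaled reads in the low libraries, 82 and 43.7 in medium and 133 and 181 in high, and its edgeR log2 fold change was 4.30. On the log2(scaled reads + 1) scale it was 2.98 in screen 2 and 6.44 in screen 3. The other SGF29 sgRNAs gave 2.87, 1.24 and 1.68 (sgRNAs 1, 3 and 4), and each was called on its own. With the median over sgRNAs in place of the mean, the gene value of SGF29 was still among the larger ones, at 2.26. TRRAP sgRNA 2 was also sparse, with 5.3 and 6.6 reads in low, 35.5 and 33.1 in medium and 59.3 and 124 in high, a log2 fold change of 3.87. TRRAP sgRNAs 1 and 3 gave 1.65 and 1.67, and sgRNA 4 gave 0.65 and was not called (adjusted p = 0.269).

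Among the other acetyltransferase and core genes, the 4 KAT2A sgRNAs gave 1.68, 1.13, 0.94 and 1.05, and the 4 TADA3 sgRNAs 2.52, 0.89, 1.46 and 2.28. Those of TAF5L gave 2.36, 1.87, 2.22 and 1.62, and those of TAF6L 2.84, 1.53, 2.30 and 0.74. SUPT20H had a pair of strong sgRNAs, numbers 2 and 3, at 1.68 and 2.39, and a pair of weaker ones, numbers 1 and 4, at 0.66 and 0.72, all of them called by edgeR. For SUPT7L sgRNAs 3 and 4 were called, at 0.77 and 1.04, while sgRNAs 1 and 2 gave 0.35 and 0.43 and were not. None of the 4 sgRNAs of SUPT3H (-0.37 to 0.46) or of KAT2B (-0.39 to 0.01) was called.

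The deubiquitinase genes differed in how evenly their sgRNAs scored. ATXN7L3 sgRNAs gave 1.36, 1.31, 1.24 and 1.16 and USP22 sgRNAs 1.08, 1.21, 1.35 and 1.01, so that all 8 lay within a range of 1.01 to 1.36 and all were called by edgeR. ENY2 sgRNAs 1, 2 and 3 were called, at 1.34, 1.06 and 0.88. ENY2 sgRNA 4 was not called (0.47, adjusted p = 0.701) and disagreed between the screens, with 85.4 reads in low and 64.5 in high in screen 2 and 83.3 and 174 in screen 3. No ATXN7 sgRNA was called on its own, although all 4 were positive in both screens, at 0.38, 0.41, 0.96 and 0.38 with adjusted p values of 0.0924 to 0.218. ATXN7 was thus called only at the gene level, by limma.

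The medium population served to place the change on either side of the basal signal. In the low population 11 of the 16 members were lower than in medium and 0 higher, against 1.54% and 1.18% of all genes by the same limma test. The module medians were -0.87 for the acetyltransferase module, -0.73 for the core and -0.38 for the deubiquitinase module, and TRRAP was at -1.06. SGF29 fell by 1.68 on the log2 scale (adjusted p = 0.0012), TADA1 by 1.60 (0.00132) and TADA2B by 1.27 (0.000808). These genes had the largest depletions from the low population among the members. The SGF29 value rested in part on sgRNA 2, which had 16 and 1.1 scaled reads in the low libraries. Its 4 sgRNAs gave -1.84, -3.35, -0.80 and -0.72 as the mean of both screens. TAF5L fell by 1.10, TRRAP by 1.06, TAF6L by 0.88, TADA3 by 0.87 and KAT2A by 0.74, with adjusted p values of 0.0014 to 0.0104. SUPT20H (0.58), USP22 (0.57) and ATXN7L3 (0.53) fell by less, with adjusted p values of 0.0275 to 0.036. The members not called were KAT2B (0.07), SUPT3H (0.01), SUPT7L (-0.31), ATXN7 (-0.23) and ENY2 (-0.17). At the level of single sgRNAs, 25 of 64 were lower in low than in medium and 0 higher, beside 0.755% and 0.645% of all sgRNAs (edgeR), and all 4 were called for TADA2B, SGF29 and TADA1. How many of all genes had 4 called sgRNAs was not counted here either. The gene calls in this comparison rested on few libraries: 0 members were called without the low library of screen 3, where the lone low library was assumed to vary like the others, 4 without the low library of screen 2, 6 without the medium library of screen 2 and 8 without that of screen 3.

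In the high population 8 members were higher than in medium and 0 lower, against 1.7% and 0.0966% of all genes by limma. These were TADA2B (1.02, adjusted p = 0.0103), TAF6L (0.96, 0.0229), TAF5L (0.95, 0.0129), SGF29 (0.94, 0.0176), TADA3 (0.93, 0.0157), TADA1 (0.92, 0.0338), SUPT20H (0.78, 0.0264) and ATXN7L3 (0.73, 0.0275). The first 6 of them, from the acetyltransferase module and the core, lay within 0.92 to 1.02. Of the others, TRRAP gave 0.85, ENY2 0.73, USP22 0.58 (adjusted p = 0.059), KAT2A 0.45, SUPT7L 0.34 and ATXN7 0.31, and KAT2B (-0.02) and SUPT3H (0.02) were near 0. Single sgRNAs were higher in 25 of 64 and lower in 0, beside 1.13% and 0.121% of all sgRNAs (edgeR; 16 by DESeq2). Without the high library of screen 3 the member count was 5, and without any other single library it was 7 to 9.

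Whether a gene moved more on one side of medium was tested directly, as the sum of the low and high values minus 2 times the medium value. By limma, 0 members were called, in this and in each alternative run, beside 0.0376% of all genes on the positive side (7 genes) and 0% on the negative one. The unadjusted p was under 0.05 for 2 members, SGF29 (-0.74, adjusted p = 0.409) and TADA1 (-0.68, adjusted p = 0.407), which lay further below medium in the low population than above it in the high one. SGF29 sgRNA 2, with 1.1 scaled reads in the low library of screen 3, was at -3.35 in low and 1.36 in high against medium. The shallow TADA1 sgRNA 3 was at -1.72 and 0.08. Among the rest, SGF29 sgRNA 4 (-0.72 and 0.95) and TADA1 sgRNA 2 (-0.87 and 1.09) leaned the other way. ENY2 had the most positive value of the members (0.56, adjusted p = 0.771).

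The T0 libraries allowed a comparison of knockout abundance between day 0 and the sorted cells of day 6, with weights of 0.25 on low and on high and 0.5 on medium, applied to log2 values. By this measure 7 members were lower in the sorted cells and 0 higher, beside 8.09% of all genes lower and 0.934% higher (limma), with an all-gene median of 0.0295. The module medians were -0.34 for the acetyltransferase module, -0.15 for the core and -0.14 for the deubiquitinase module. TRRAP had the largest loss: its sgRNAs summed to 1022 (screen 2) and 924 (screen 3) reads on day 0, against 477 and 356 in medium. The log2 change of TRRAP was -1.37 (SE 0.0936, adjusted p = 6.42e-07), and all 4 of its sgRNAs were lower by edgeR, at -1.32, -2.02, -1.33 and -0.87. The other 6 had smaller values: TADA3 (-0.49, adjusted p = 0.00948), TADA1 (-0.41, 0.011), TAF6L (-0.41, 0.0277), ATXN7L3 (-0.36, 0.028), SGF29 (-0.35, 0.0349) and TADA2B (-0.34, 0.0393). Of the 64 sgRNAs, 15 were lower than at T0 and 0 higher, beside 6.29% and 1.01% of 74415 sgRNAs tested (edgeR). These were the 4 of TRRAP, 3 each of TADA3 and TADA1, 2 of TAF6L and 1 each of KAT2A, TADA2B and SGF29, with none from the deubiquitinase module.

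A mean of log2 values falls for a gene that is spread unevenly over the populations even where its total reads do not, so the reads of the 3 populations were also pooled with the same weights before log2 was taken. Then 2 members were lower than at T0 and 0 higher, beside 1556 lower and 473 higher of all 18638 genes. The 2 were TRRAP at -1.16 (44.7% of T0, adjusted p = 2.2e-10 by limma) and TADA3 at -0.33 (79.4% of T0, adjusted p = 0.0272). TADA1 was at 91.5% of T0, SGF29 at 98.2%, TADA2B at 92%, TAF6L at 85.8% and ATXN7L3 at 82% (adjusted p = 0.0535), and none of these was called. KAT2B stood at 107% and SUPT3H at 114% of T0, also not called. The call for TRRAP held in all 16 alternatives tried, with log2 values of -1.59 to -1.16. The counts for the other members moved with single libraries under the weighted mean of log2 values: 1 member was called without the T0 library of screen 3 and 2 without that of screen 2. There were 3 without the high library of screen 2 or without the low, medium or high library of screen 3, and 4 without the medium library of screen 2. Centring on the sgRNAs without a target moved the median of all genes from 0.0295 to -0.195 and gave 11 lower members. It also gave 6695 lower and 24 higher of all 18638 genes, against 1508 and 174 without this centring.

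Genes that work beside SAGA were read from fixed lists in the comparison of high with low. Of the TAFs that SAGA shares with TFIID, 2 of 4 were higher, TAF12 (1.05, adjusted p = 4.2e-05 by limma) and TAF10 (0.91, 0.000152), which form histone-fold pairs with TADA1 and SUPT7L. TAF9 (0.16) and its paralog TAF9B (0.07) were not called. Both TFIID counterparts of the SAGA core were higher as well, TAF6 at 1.22 (adjusted p = 2.76e-05) and TAF5 at 0.85 (0.000271), against 1.85 for TAF6L and 2.05 for TAF5L. Both genes were also lower than at T0, TAF6 at -0.77 and TAF5 at -0.57.

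SF3B3 and SF3B5, splicing factor subunits that also associate with SAGA, were higher in the high population, at 1.83 (adjusted p = 1.69e-06 by limma) and 1.73 (4.89e-05). Both had been largely lost since T0, with log2 fold changes of -3.50 and -3.80. Reads of SF3B3 went from 830 and 1001 on day 0 to 47 and 49.3 in the low libraries. Those of SF3B5 went from 1612 and 1627 to 87.6 and 78.9. The values of both genes between the sorted populations thus rested on few reads. For SF3B5 the value was 2.22 in screen 2 and 1.24 in screen 3.

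Paralogs and alternative subunits of the deubiquitinase module gave 0 calls among 5. They were ATXN7L1 (0.22), ATXN7L2 (0.19), USP51 (0.17), ATXN7L3B (-0.03) and USP27X (-0.10). The enzymes that place the ubiquitin on histone H2B, and their adaptor, made up another list. Of its 5 genes 3 were lower in the high population and 0 higher: RNF20 at -1.58 (adjusted p = 1.82e-06), its partner RNF40 at -0.78 (0.00076) and the adaptor WAC at -0.59 (0.0039). RNF20 had 1745 and 1518 scaled reads in low, 838 and 812 in medium and 529 and 538 in high, an order opposite to that of USP22 in both screens. The ubiquitin-conjugating enzymes UBE2A (-0.30) and UBE2B (0.09) were not called. RNF20 and RNF40 were also lower than at T0, with log2 fold changes of -0.67 and -0.51. USP22 was at -0.22 against T0 and was not called (adjusted p = 0.207).

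The complexes that share a subunit with SAGA were mixed. Of 7 genes of ATAC outside SAGA, 1 was higher (DR1 at 0.80, adjusted p = 0.000436 by limma) and 1 lower (WDR5 at -0.94, adjusted p = 0.000108), with a median of 0.03. DR1 also acts as a repressor of TATA-binding protein and WDR5 also belongs to histone H3 methyltransferase complexes. TADA2A, the ATAC form of the ADA2 adaptor, gave 0.21 and was not called, against 2.29 for the SAGA form TADA2B. KAT14, the second acetyltransferase of ATAC, gave 0.03. Of 12 genes of TIP60, 4 were higher, MEAF6 (1.05), KAT5 (0.83), EP400 (0.83) and BRD8 (0.77), and 2 lower, VPS72 (-0.82) and YEATS4 (-0.59), with a median of 0.24. TRRAP at 1.91 lay above all of these. KAT5 (-1.07), EP400 (-1.51) and BRD8 (-0.80) were also lower than at T0, while MEAF6, VPS72 and YEATS4 were not called there. For EP400 the value of high versus low was 0.45 in screen 2 and 1.21 in screen 3. Of 5 genes of TREX-2, the complex of ENY2, 2 were higher, PCID2 (1.44) and MCM3AP (0.50), and 0 lower.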

How the data were processed

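The sgRNA cassettes of sorted and T0 cells were amplified from genomic DNA and sequenced. The authors counted and demultiplexed the reads with MAGeCK and deposited them as unnormalized counts of every sgRNA in each lane. A further 4 columns of that table belong to no sample and were left out. Lanes were summed into 8 libraries (group by population, replicate by screen) once their spread was seen to be near that of sampling (chi-square statistic over its degrees of freedom of 1.02 to 1.03, sgRNAs with 20 or more reads). Reads were PCR products with no molecular identifiers, so they overstate the number of independent molecules.

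For genes, each library was brought to the mean total, 1 read was added, and log2 differences within a screen were averaged over sgRNAs. limma 3.58.1 (R 4.3.3) compared the average over both screens with 0, with Benjamini-Hochberg adjustment over 18659 entries, and calls (adjusted p under 0.05) were counted over 18638 genes. Its standard errors, intervals and p values are moderated toward the spread of all genes. Raw counts of single sgRNAs were tested with edgeR 4.0.16 (filterByExpr, TMM, quasi-likelihood test) with the screen as a block, in the 6 sorted libraries or in all 8 for T0. The screen pairs the libraries because each screen was performed on its own. Over sgRNAs, libraries of 1 screen deviated together from their population means with correlations of 0.0745 to 0.129. DESeq2 1.42.0 was used in alternatives. Both tests were first tried on simulated data. Names and coordinates were taken from GENCODE release 44 (GRCh38), where 18585 of 18638 gene identifiers had a name. All 16 members are described, and of the related lists the genes called between high and low. Related genes that were not called are named for some lists only, and from ATAC only TADA2A and KAT14. The members, the related lists and the tests were chosen with earlier results of these data known. The alternatives were another pseudocount (5 reads), a minimum of 50 reads per sgRNA, other scalings, the median over sgRNAs, fits on libraries with and without the screen, and each library left out. Pooling of reads before log2 was added after the values were seen.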

Additional observations from a re-analysis of the deposited data

How the results depend on the processing

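In each alternative 0 members were lower in high than in low, and 14 were higher except with a library left out (11 to 14). For these 14 the sign never changed. As reported, 14 members were higher in high than in low, 11 lower in low than in medium, 8 higher in high than in medium and 7 lower than at T0. With limma on the libraries with the replicate block the counts were 14, 11, 6 and 5, and with no replicate block 14, 7, 5 and 3, while sgRNA counts of 48, 25, 25 and 15 became 47, 23, 20 and 12 with no replicate block. DESeq2 called 16 member sgRNAs higher in high than in medium.

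Centring on sgRNAs without a target gave 11 members lower than at T0, beside 6695 of all 18638 genes. Module medians against T0 were then -0.57 (acetyltransferase), -0.38 (core) and -0.37 (deubiquitinase), and the core median was 1.69 for high versus low. Pooling reads before log2 gave 2 members lower than at T0, beside 1556 of all 18638 genes. The medians were then -0.12 (acetyltransferase), -0.00568 (core) and -0.07 (deubiquitinase), beside -0.34, -0.15 and -0.14. Size factors of DESeq2 gave a core median of -0.17.

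Leaving out 1 library at a time gave 0 to 11 members lower in low than in medium, 5 to 9 higher in high than in medium and 1 to 6 lower than at T0. A high library takes no part in low versus medium, so leaving it out repeated the reported gene fit. The value of 11 members came only from those runs, and leaving out any low or medium library gave fewer. Leaving out a low library likewise repeated the gene fit of high versus medium. The core median ran from 1.54 to 1.62 for high versus low and from -0.19 to -0.12 against T0. In the sgRNA counts that follow, the upper values for low versus medium and high versus medium also came from leaving out a library outside the comparison. Member sgRNAs numbered 12 to 24 for low versus medium, 13 to 26 for high versus medium and 5 to 16 against T0. Over all genes, 979 were higher and 508 lower in high than in low, against 496 and 161 without the low library of screen 3 and 506 and 136 without that of screen 2. For low versus medium, 219 and 287 genes fell to 20 and 11 without the low library of screen 3, and the asymmetry gave 7 genes by the mean and 209 and 32 by the median over sgRNAs. With 2 screens, sgRNAs with few reads in the low population, such as SGF29 sgRNA 2 and TRRAP sgRNA 2, set the largest single values.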
